A study of Drosophila melanogaster with 2 samples.

Results

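The genes described here are 9 genes of endoplasmic reticulum (ER) stress and the unfolded protein response in the posterior midgut, the hind stretch of the fly's middle intestine. They were given as a list of names: Xbp1, ire-1, PEK, crc, Hsc70-3, Gp93, Pdi, Ero1L and Cnx99A. All 9 were found in the deposited transcript table by exact symbol, ire-1 under its alternative name Ire1, and all 9 had enough reads to be tested among 8137 genes. Poly(A) RNA came from pooled posterior midguts of wild-type Oregon R females of 45 days and of 5 days. Per the labels each age had 3 biological replicates. The count columns are named treatment and control, and no source used here says which name stands for which age. Values are therefore given for the treatment set against the control set, and no age is attached to either. Both sets share strain, genotype and sex.

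The ER folds and modifies proteins bound for the cell surface and the outside, and the unfolded protein response adjusts its capacity when unfolded proteins gather there. Ire1 and PEK are sensors that span the ER membrane. Ire1 splices the Xbp1 messenger RNA so that an active transcription factor is made, while PEK phosphorylates the translation factor eIF2alpha, which lowers protein synthesis in general and favours translation of crc, the fly ATF4. Hsc70-3, Gp93, Pdi, Ero1L and Cnx99A belong to the folding machinery. In the fly midgut this response has been studied in intestinal stem cells, where it bears on their proliferation. Splicing of Xbp1, phosphorylation and translation cannot be read from these counts.

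Of the 9 genes, 6 were lower in treatment, by small amounts, and 0 were higher (edgeR quasi-likelihood test, adjusted p under 0.05). At an unadjusted p under 0.05 the counts were 7 lower and 0 higher, and with DESeq2 5 and 0. The 6 were Pdi, Hsc70-3, Gp93, Ire1, PEK and crc. Of all genes tested, 49.2% changed, 24.1% lower and 25.0% higher. The median log2 fold change was -0.16 over the 9 genes and 0.01 over all genes. The sets did not overlap for the same 6 genes, and they did not overlap for 55.2% of all genes. The direction depends in part on the scaling: with total reads in place of TMM factors the median of all genes shifted to 0.22 and that of the 9 genes to 0.04, with Pdi and Hsc70-3 lower and Ero1L and Cnx99A higher. Under that scaling 13.2% of all genes were lower and 50.7% higher.

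The folding factors held the largest differences. Hsc70-3 encodes the fly BiP, the Hsp70 chaperone of the ER (X, 11695729 to 11701212, in the build of the deposited table, which is not named). Its level was 615.9, 611.5 and 605.9 CPM (counts per 1000000 reads of the TMM-scaled library) in treatment replicates 1 to 3, against 748.3, 747.5 and 776.8 CPM in the control replicates. The treatment libraries lay close together and all below the control libraries, at a log2 fold change of -0.31 (SE 0.04, adjusted p = 3.4e-07), or 80.7% of the control level. Gp93, the Hsp90 chaperone of the ER (3R, 23774380 to 23777882), had 522.9, 548.2 and 512.6 CPM in treatment and 638.2, 661.1 and 642.4 CPM in control. It fell by a similar amount, with a log2 fold change of -0.29 (SE 0.04, adjusted p = 1.16e-06) and no overlap between sets, but the call was lost with total reads (-0.09, adjusted p = 0.0613). The last 110 bases of Gp93 overlap CG4951 on the opposite strand, and the reads there cannot be assigned without strand. CG4951 had 231 to 474 reads in treatment and 238 to 349 reads in control, against 5592 to 10238 and 7147 to 10317 for Gp93.

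Pdi, which forms and rearranges disulphide bonds in new proteins, had the largest fold change of the 9 (3L, 15130430 to 15135745). It stood at 747.1, 767.1 and 730.4 CPM in treatment against 963.6, 981.6 and 971.6 CPM in control, which puts the treatment set at 76.9% of the control set. All 3 treatment libraries were below all 3 control libraries (log2 fold change -0.38, SE 0.04, adjusted p = 9.52e-09). Its log2 fold change lies at the 15.7th percentile of all genes tested, so more strongly lowered genes were common in these libraries.

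**Figure D1:**
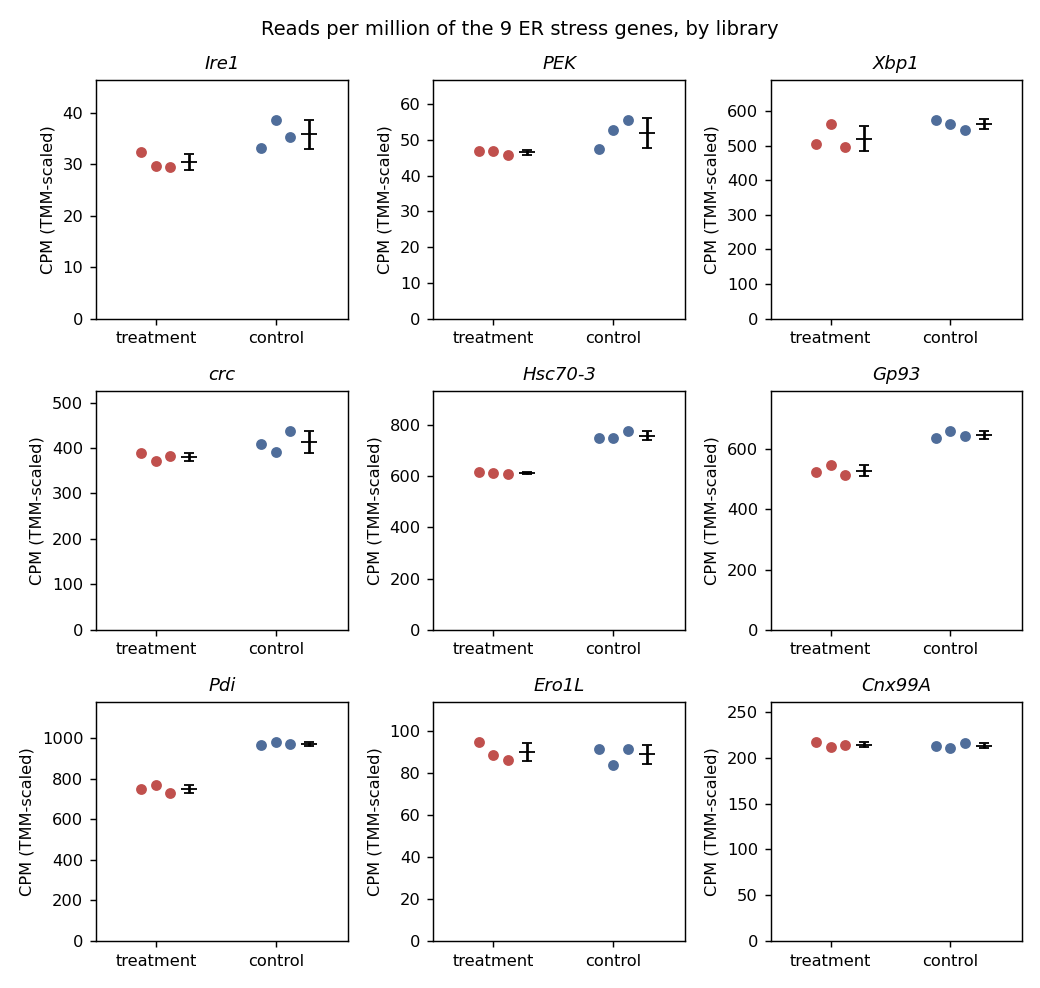
TMM-scaled counts (CPM, vertical axis from 0) of the 9 genes in each of the 3 treatment and 3 control libraries, with the mean and SD of each set as a black mark. Treatment libraries lie below control libraries without overlap for Hsc70-3, Gp93, Pdi, Ire1, PEK and crc (narrowly for PEK, Ire1 and crc), and the sets overlap for Xbp1, Ero1L and Cnx99A.

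Ero1L and Cnx99A, which act beside those chaperones, did not pass the test. Ero1L re-oxidises Pdi so that it can make further disulphide bonds (3L, 4170266 to 4173789). Its values were 94.7, 88.5 and 86.2 CPM in treatment against 91.3, 83.6 and 91.2 CPM in control, and the sets overlapped (log2 fold change 0.02, 95% interval -0.08 to 0.13, adjusted p = 0.731). Cnx99A encodes a calnexin, a membrane-bound chaperone that binds glycoproteins as they fold (3R, 25140965 to 25145336). It was at 217.4, 212.2 and 213.7 CPM in treatment and at 212.5, 210.5 and 215.8 CPM in control, with an interval of -0.08 to 0.10 on the log2 scale (adjusted p = 0.858). With scaling by total reads both were called higher, at 0.23 for Ero1L (adjusted p = 0.000559) and 0.22 for Cnx99A (adjusted p = 7.51e-05), close to the median of all genes under that scaling, 0.22.

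The sensors had the lowest levels among the listed genes and fell slightly. Ire1 (3R, 15680162 to 15687013) had 32.3, 29.6 and 29.4 CPM in treatment and 33.2, 38.7 and 35.4 CPM in control. The sets did not overlap, although the highest treatment library and the lowest control library were close (log2 fold change -0.23, SE 0.07, adjusted p = 0.00864). The call was lost without control replicate 2 (adjusted p = 0.0923) and with scaling by total reads (-0.02, adjusted p = 0.785). PEK (3R, 1284285 to 1290472) was at 46.9, 47.0 and 45.7 CPM in treatment against 47.4, 52.7 and 55.7 CPM in control. Its treatment libraries were nearly equal and just under the lowest control library (log2 fold change -0.16, SE 0.06, adjusted p = 0.0377). That call did not hold without treatment replicate 1 (adjusted p = 0.0761), treatment replicate 3 (0.109), control replicate 2 (0.0938) or control replicate 3 (0.194), nor with DESeq2 (0.0666), upper-quartile scaling (0.140) or summed transcripts (0.0711), and with total reads its log2 fold change was 0.04 (adjusted p = 0.583).

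The transcription factors downstream of the sensors differed least among the genes with a negative estimate. For crc (2L, 21310854 to 21319536) the values were 388.9, 371.6 and 383.5 CPM in treatment and 408.9, 390.7 and 438.2 CPM in control. No library of either set fell within the other, with the nearest at 388.9 and 390.7 CPM (log2 fold change -0.11, SE 0.05, adjusted p = 0.0423). The call was lost without any 1 of treatment replicates 1 (adjusted p = 0.0597), 2 (0.116) and 3 (0.0897) and control replicate 3 (0.218), with upper-quartile scaling (0.241) and with summed transcripts (0.0744), and with total reads the estimate was 0.09 (adjusted p = 0.0847). Xbp1 (2R, 17031050 to 17033255) had 503.2, 560.9 and 494.9 CPM in treatment against 575.0, 562.4 and 545.9 CPM in control. Treatment replicate 2 lay inside the control range, and the gene missed the threshold (log2 fold change -0.11, 95% interval -0.21 to -0.01 before adjustment, adjusted p = 0.0522). Without treatment replicate 2 it passed (-0.17, adjusted p = 0.00241), as it did without control replicate 3 (-0.14, adjusted p = 0.0225), and with total reads its estimate was 0.09. The table lists 1 transcript for Xbp1, so its spliced and unspliced forms were not counted apart.

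**Figure D2:**
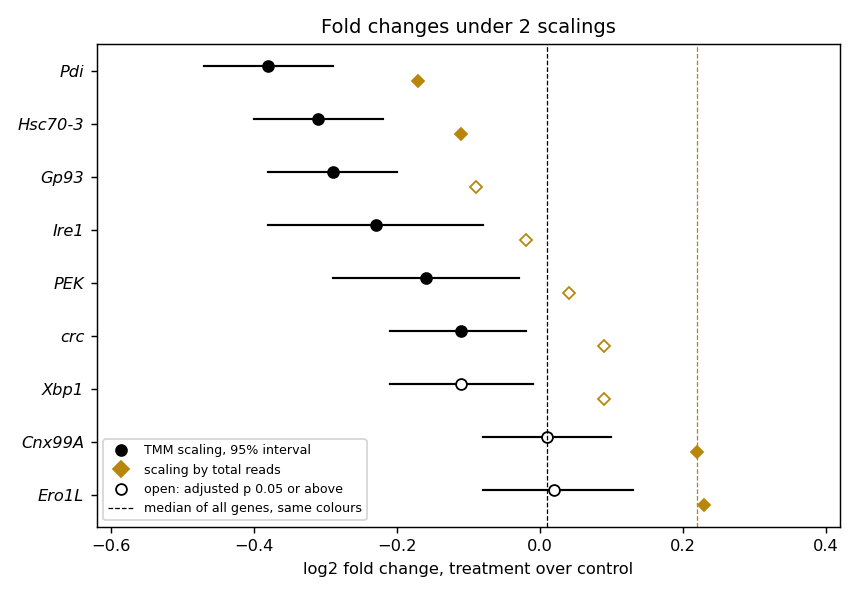
Log2 fold change of treatment over control for the 9 genes with TMM scaling (circles, 95% interval) and with scaling by total reads (diamonds), filled where the adjusted p is under 0.05. Dashed lines mark the median of all genes, 0.01 with TMM (black) and 0.22 with total reads (brown). Pdi, Hsc70-3, Gp93, Ire1, PEK, crc and Xbp1 lie below that median under both scalings, and Ero1L and Cnx99A lie close to it.

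Relative to the median of all genes under total-read scaling, the log2 fold changes were -0.39 for Pdi, -0.32 for Hsc70-3, -0.31 for Gp93, -0.24 for Ire1, -0.18 for PEK, -0.13 for crc and -0.13 for Xbp1. The scalings differ only by a factor per library, which moves all genes by nearly the same amount. The order of the genes is therefore kept by construction and is no check on the scaling.

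Ratios of reads within a library need no scaling factor, and they differed among the 9 genes. Gp93 had 0.849, 0.897 and 0.846 reads per read of Hsc70-3 in treatment and 0.853, 0.884 and 0.827 in control, so the chaperone pair kept overlapping ratios. Pdi per read of Hsc70-3 was 1.22 ± 0.0264 in treatment and 1.28 ± 0.0314 in control (means with SD over 3 libraries), also with overlap. Cnx99A stood at 0.353, 0.347 and 0.353 reads per read of Hsc70-3 in treatment, against 0.284, 0.282 and 0.278 in control. These ranges are far apart compared with the spread within a set. Ero1L per read of Hsc70-3 was 0.147 ± 0.00605 in treatment and 0.117 ± 0.00511 in control, again without overlap. The ratios of Xbp1, crc and PEK were higher in every treatment library than in any control library (0.85 against 0.741, 0.624 against 0.544 and 0.0762 against 0.0685 as means), whereas those of Ire1 overlapped. These ratios were not tested, and the share of all genes with ratios that do not overlap was not counted. The log2 fold change of Hsc70-3 itself lies at the 18.8th percentile of all genes tested. A higher ratio to it in treatment is therefore the common case among all genes.

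**Figure D3:**
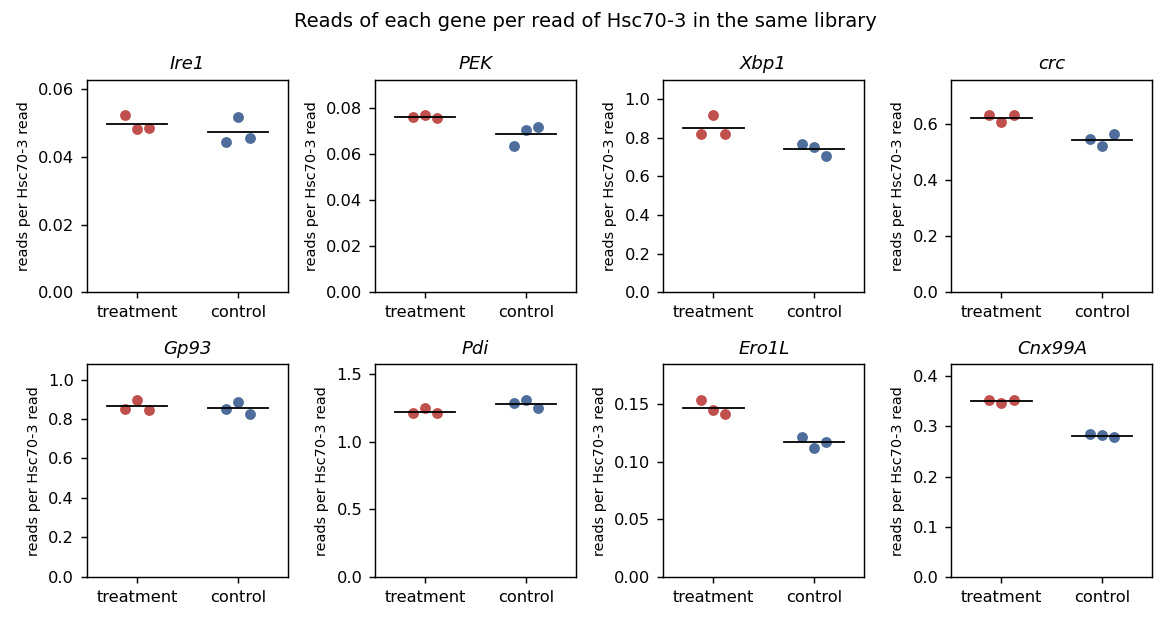
Reads of each of the other genes per read of Hsc70-3 in the same library (vertical axis from 0), for the 3 treatment and 3 control libraries, with the mean of each set as a line. The Cnx99A ratio is 0.347 to 0.353 in treatment and 0.278 to 0.284 in control, while the Gp93, Pdi and Ire1 ratios overlap between sets.

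Per kilobase of the counted transcript, the genes fell into a high and a low range. Levels as CPM divided by the length in kilobases (RPKM, TMM-scaled) were highest for Pdi, at 294.4 ± 7.23 in treatment and 382.6 ± 3.55 in control (means with SD, 3 libraries each). Xbp1 followed at 242.6 ± 16.8 RPKM in treatment and 261.9 ± 6.81 RPKM in control. Behind it, in treatment, crc (198.0 ± 4.61 RPKM), Hsc70-3 (189.8 ± 1.54 RPKM) and Gp93 (181.9 ± 6.31 RPKM) were neighbours, of which Hsc70-3 and Gp93 differed by little more than their spread. In control that order was Hsc70-3 (235.3 ± 5.19 RPKM), Gp93 (223.0 ± 4.21 RPKM) and crc (214.2 ± 12.5 RPKM), and Gp93 and crc did not differ beyond their spread. Cnx99A (77.2 ± 0.965 RPKM in treatment, 76.7 ± 0.965 RPKM in control) and Ero1L (40.1 ± 1.96 and 39.6 ± 1.98 RPKM) were lower. The sensors PEK (9.86 to 10.1 RPKM in treatment and 10.2 RPKM or more in control) and Ire1 (8.32 ± 0.436 and 9.78 ± 0.755 RPKM) came last, near the middle of all genes tested, at the 50.3th and 46.3th percentile. The order of the 9 mean levels was the same with the authors' deposited normalized signal. Summed, the 9 genes took 3169.4 ± 67.1 CPM in treatment and 3740.0 ± 29.0 CPM in control, without overlap. Per 1000000 reads with no TMM factor the sums were 3400.5 ± 78.9 in treatment and 3483.2 ± 58.6 in control, and the sets overlapped.

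For the 5 loci with several transcripts in the table, most of the transcripts share most of their reads. Transcripts can differ in their exons as well as in their ends, so their counts do not give position along the gene alone. The crc transcript that stops at position 21312823 (1196 bases) had 14.2%, 12.4% and 13.9% of the reads of the most-read transcript (1926 bases) in treatment. In control it had 15.2%, 15.7% and 16.3%. The transcript that begins at 21314366 (2518 bases) had 86.7% ± 0.959 in treatment and 84.5% ± 0.521 in control (SD over 3 libraries). It is longer than the most-read transcript and so is not a portion of it. Use of transcripts and position along the gene cannot be told apart for crc. Counted on the transcript that stops at 21312823, crc had a log2 fold change of -0.33 (adjusted p = 0.000112). The Cnx99A transcript that lacks the 3′ end of the locus had 53.4%, 55.1% and 53.3% of the reads of the most-read transcript in treatment, against 57.4%, 62.5% and 57.0% in control, and counted on it Cnx99A was called lower (-0.12, adjusted p = 0.0304). The Pdi transcript that lacks the 5′ end had 95.3% ± 0.0475 in treatment and 94.6% ± 0.393 in control. In treatment the share was thus lower for the Cnx99A transcript short of the 3′ end and higher for the Pdi transcript short of the 5′ end. Neither overlapped between sets. Use of transcripts and position along the gene cannot be told apart for Cnx99A and Pdi either. The crc transcripts nearer the 5′ and 3′ ends of the locus differed in the same direction. For Ire1 the shares overlapped (97.0% to 97.7% in treatment, 96.5% to 98.1% in control). They also overlapped for the Hsc70-3 transcript that stops furthest short of the 5′ end (99.6% to 99.8% in treatment, 99.4% to 99.7% in control).

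**Figure D4:**
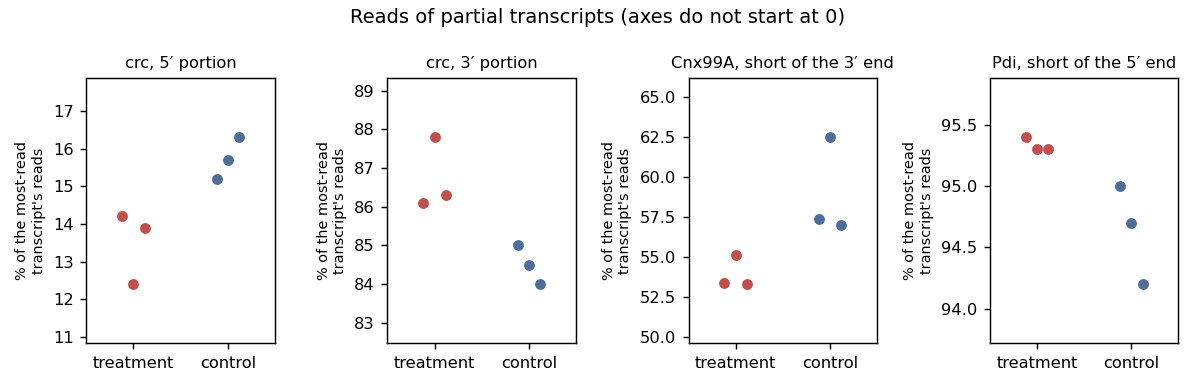
Reads of other transcripts of crc, Cnx99A and Pdi as a percentage of the reads of the most-read transcript of the same gene, in each library (vertical axes cut, not from 0). Treatment libraries are lower for the crc transcript at the 5′ end of the locus (12.4% to 14.2% against 15.2% to 16.3%) and for the Cnx99A transcript short of its 3′ end. They are higher for the crc transcript at the 3′ end of the locus and the Pdi transcript short of its 5′ end. The crc panels, titled portions, show separate transcripts.

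Across all such loci, shares that did not overlap between sets leaned the same way, but the median difference was small. Among 73 loci with at least 1000 reads per library and a transcript that stops at least 300 bases short of the 3′ end, that transcript's share was lower in all treatment libraries than in any control library for 31.5% and higher for 9.59%. Among 209 loci with a transcript short of the 5′ end, its share was higher for 30.1% and lower for 7.66%. The median log2 difference in share, treatment minus control, was -0.032 for the 73 loci and 0.004 for the 209 loci. The part of these differences in the values of the 9 genes was not tested.

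In the wider ER pathway, 84 genes of 9 lists by role were tested, of which 22 rose, 20 fell and 42 did not pass (median log2 fold change 0.00). These shares, 26.2% higher and 23.8% lower, are near those of all genes tested (25.0% and 24.1%). With scaling by total reads the counts were 50 higher and 9 lower, or 59.5% and 10.7%, beside 50.7% and 13.2% of all genes. The counts of the single lists are descriptions of their members. Each count of 0 called by edgeR on these lists was also 0 at an unadjusted p under 0.05 and with DESeq2. Of 7 cochaperones and related factors, 4 fell and 2 rose, which turned to 2 lower and 3 higher with total reads. Grp170, which releases nucleotide from BiP, was at 154.2, 151.4 and 159.9 CPM in treatment against 239.7, 247.2 and 237.7 CPM in control (log2 fold change -0.64, SE 0.04, adjusted p = 6.7e-14), a larger difference than for any of the 9 genes and without overlap. P58IPK, an ER cochaperone of the DnaJ family, fell to 110.0 ± 1.45 CPM in treatment, against 141.2 ± 1.89 CPM in control (-0.36, adjusted p = 4.51e-08). BI-1, a membrane protein that protects from ER stress, rose by contrast (284.6 ± 4.35 against 227.3 ± 5.23 CPM, log2 fold change 0.32, adjusted p = 1.28e-07). All 3 kept their direction and call with total reads (-0.43, -0.16 and 0.53).

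The other disulphide isomerases and oxidation factors leaned the other way from Pdi. Of 5 tested, 3 rose and 0 fell, with a median log2 fold change of 0.23 (5 and 0 with total reads). ERp60 was at 516.8 to 540.0 CPM in treatment and 390.4 to 414.4 CPM in control (log2 fold change 0.38, adjusted p = 9.8e-09), and prtp (0.42, adjusted p = 2.78e-09) and CaBP1 (0.23, adjusted p = 0.000337), both with thioredoxin domains, were higher as well. ERp60, prtp and CaBP1 were also higher with total reads (0.58, 0.62 and 0.43). On the calnexin and glycoprotein folding list, 1 of 6 rose and 0 fell (4 and 0 with total reads). That gene was Uggt, the glucosyltransferase that marks unfolded glycoproteins for another round (0.19, adjusted p = 0.0123), a call lost without control replicate 1 (adjusted p = 0.0734) or treatment replicate 3 (0.0808). Calr, the calreticulin gene once written Crc and distinct from crc, was at 816.6 ± 24.2 CPM in treatment and 827.1 ± 40.6 CPM in control (adjusted p = 0.774; 0.19 and called higher with total reads, adjusted p = 0.000422). Of 5 oligosaccharyl transferase subunits, which attach glycans, 2 rose and 0 fell (5 and 0 with total reads). They were Ost48 (0.20, adjusted p = 0.00032) and Dad1 (0.15, adjusted p = 0.0359), and the call of Dad1 ended under DESeq2 (adjusted p = 0.114) or when leaving out treatment replicates 1 (0.169) or 3 (0.0554) or control replicates 1 (0.103) or 2 (0.158).

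**Figure D5:**
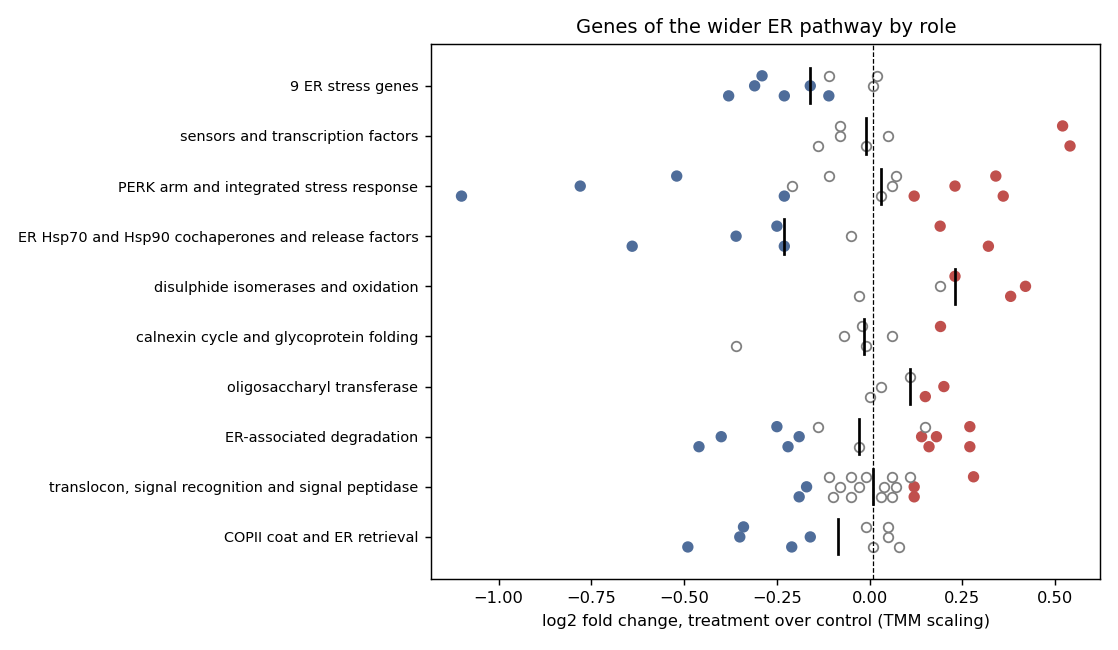
Log2 fold change of treatment over control (TMM scaling) for the 9 ER stress genes and for the 84 tested genes of the wider pathway by role, 1 point per gene. Filled points passed the test (red higher, blue lower), open points did not, short black lines are list medians and the dashed line is the median of all genes at 0.01; isomerases lie mostly to the right and cochaperones mostly to the left.

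Among 7 further sensors and transcription factors 2 rose and 0 fell, as with total reads. Atf3, a bZIP stress transcription factor, was at 114.2 to 129.7 CPM in treatment and 75.5 to 95.5 CPM in control (log2 fold change 0.52, adjusted p = 1.49e-08), and the adaptor gene Traf4 was at 11.1, 9.9 and 12.1 CPM in treatment and 7.5, 8.46 and 6.88 CPM in control (0.54, adjusted p = 0.000264). Atf6, the sensor that is cut to release a transcription factor, was at 47.1 ± 3.15 CPM in treatment and 50.1 ± 5.67 CPM in control (95% interval -0.23 to 0.06 on the log2 scale, adjusted p = 0.352).

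On the PERK and integrated stress response list, 4 of 13 rose and 4 fell (7 and 3 with total reads). Thor, the fly 4E-BP and a transcriptional target of crc, had 268.0, 270.1 and 265.8 CPM in treatment and 407.6, 363.6 and 385.6 CPM in control. The sets were far apart, at a log2 fold change of -0.52 (SE 0.05, adjusted p = 2.12e-11). Sesn, a sestrin (-0.78, adjusted p = 7.71e-13), and aay, a phosphatase of serine synthesis (-1.10, adjusted p = 6.93e-18), fell further. Xrp1 also fell (-0.23, adjusted p = 5.96e-05), with no call under total reads. The 4 that rose were Irbp18 (0.36, adjusted p = 0.00123), Nmdmc (0.34, 0.000607), Shmt (0.23, 0.00042) and eIF2gamma (0.12, 0.035). All 4 were also called higher with total reads. PPP1R15, whose product directs dephosphorylation of eIF2alpha, was at 93.0 ± 5.3 CPM in treatment and 89.2 ± 1.01 CPM in control (adjusted p = 0.368; 0.26 and called higher with total reads, adjusted p = 6.02e-05).

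Genes of disposal and export followed. In ER-associated degradation, which removes misfolded proteins, 5 of 13 rose and 5 fell (7 and 2 with total reads). Edem2, a mannosidase-like lectin (-0.46, adjusted p = 1.38e-07), the ubiquitin-conjugating enzyme gene Ubc7 (-0.40, adjusted p = 2.15e-07) and Herp (-0.25, adjusted p = 3e-05) fell, Herp losing its call with total reads (-0.04, adjusted p = 0.414). Hrd3 (-0.22) and Edem1 (-0.19) fell as well, without a call under total reads. The 5 that rose were Npl4 and Ufd1 (each 0.27), Ubc6 (0.18), TER94 (0.16) and Ubqn (0.14), all also called higher with total reads. On the translocon, signal recognition and signal peptidase list 3 of 18 rose and 2 fell (12 and 0 with total reads), with the signal peptidase subunit gene Spase12 at 0.28 (adjusted p = 0.000998), Srp54k of the signal recognition particle at -0.19 (adjusted p = 0.00392) and Trp1, the fly Sec62, at -0.17 (adjusted p = 0.00696). Srp54k and Trp1 turned to 0.02 and 0.03 with total reads, with no call. In COPII coat and ER retrieval 0 of 10 rose and 5 fell, against 5 higher and 2 lower with total reads. Sar1, the GTPase that starts coat assembly, was at 246.7 ± 4.24 CPM in treatment and 346.7 ± 15.2 CPM in control (-0.49, adjusted p = 5.48e-11), and the cargo receptor gene Surf4 (-0.34, adjusted p = 1.72e-07) and Sec16, of ER exit sites (-0.35, adjusted p = 0.000101), fell too. The call of Sec16 was lost with total reads (-0.15, adjusted p = 0.0808).

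Markers of the cell types in the tissue also differed between sets. Fewer cells of a type and less RNA per cell cannot be told apart in such bulk samples. Enterocyte markers, of which 4 of 10 tested rose and 5 fell, summed to 10469.3 to 11086.9 CPM in treatment and 13898.9 to 14386.0 CPM in control. The sum followed LManV (mean 1376.7 CPM in treatment, 3783.7 CPM in control), Amy-p (1279.9 and 2279.7 CPM) and Amy-d (560.0 and 1348.7 CPM). Mal-A1 (3109.5 and 2184.7 CPM), mex1 (454.7 and 414.6 CPM) and nub (171.5 and 151.5 CPM) were among those that rose. Visceral muscle markers summed to 1274.9 to 1321.5 CPM in treatment and 2272.9 to 2447.8 CPM in control, with 10 of 11 lower and 1 higher. Stem cell and enteroblast markers summed to 197.4 to 204.6 CPM in treatment and 128.4 to 129.5 CPM in control (8 of 9 higher), and enteroendocrine markers to 484.6 to 516.2 CPM and 655.7 to 735.2 CPM (6 of 10 lower). Markers of neighbouring tissues summed to less than those of enterocytes: 68.5 to 75.3 CPM in treatment and 104.1 to 113.4 CPM in control for fat body (3 of 4 higher, 1 lower), 24.1 to 30.8 and 38.6 to 40.8 CPM for hemocytes (2 of 4 higher, 2 lower), 100.5 to 102.6 and 96.0 to 99.3 CPM for Malpighian tubules (1 of 3 higher), 11.7 to 12.7 and 14.9 to 17.8 CPM for trachea (3 of 4 lower), and 5.1 to 7.71 and 2.68 to 3.84 CPM for ovary and eggshell (1 of 2 higher), where the chorion gene dec was listed at 0. For fat body and hemocytes the sums were lower in treatment although the median log2 fold changes were positive (0.53 and 0.98). Most of the fat body sum was FASN1 (40.6 CPM in treatment and 87.0 CPM in control). Nearly all of the Malpighian tubule sum was SLC22A (97.9 CPM in treatment and 96.0 CPM in control, not called). With total reads 5 enterocyte markers were higher and 3 lower, 2 enteroendocrine markers were higher and 5 lower, 3 Malpighian tubule markers were higher, and 0 trachea markers were called. The part of these shifts in the values of the ER genes was not tested.

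The genes whose log2 CPM over the 6 libraries was most like that of Hsc70-3 were the protease gene Jon99Ciii (Pearson r = 0.9989), the lipoprotein receptor gene LpR1 (0.9988) and CG14989 (0.9988). Jon99Ciii, which may share reads with near-identical protease genes, fell by 1.75, LpR1 by 0.66 and CG14989 by 1.21 on the log2 scale, all more than Hsc70-3. For Xbp1 they were SdhC (0.9957), p38b (0.9867) and Cyt-c1 (0.9848), whose treatment replicate 2 was also the highest of its set. SdhC was called lower (-0.16, adjusted p = 0.00914), and p38b (-0.08, adjusted p = 0.181) and Cyt-c1 (-0.07, adjusted p = 0.2) were not. The 6 libraries share their set difference, so these correlations describe the libraries and no more.

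The authors' deposited table of comparisons holds 7 of the 9 genes, with a log2 fold change of -0.38 (SE 0.02) for Pdi, -0.21 (SE 0.08) for Ire1, -0.32 (SE 0.02) for Hsc70-3, -0.31 (SE 0.04) for Gp93, -0.16 (SE 0.07) for PEK, -0.12 (SE 0.05) for crc and -0.12 (SE 0.06) for Xbp1. In the authors' deposited table the adjusted p was 0.0827 for Xbp1, 0.0344 for Ire1, 0.0468 for PEK and 0.0322 for crc. Ero1L and Cnx99A were not matched in it. Of its 4101 genes, 3622 were matched to genes tested here by gene ID, by locus tag or, for Pdi, by full name, and 479 were not. Of the 3622 genes of the authors' deposited table matched here, 3617 have the same sign as the treatment over control values here. That table compares the same sets and holds no adjusted p above 0.0999, so shared signs are no independent check.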

How the data were processed

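Poly(A) libraries were compared as 3 treatment and 3 control libraries (9581961 to 18001951 reads over genes). Per the file headers, the authors deposited raw read counts per transcript, and a normalized signal per transcript length and mapped reads, used here to check the order of levels. The authors' deposited table of comparisons holds log2 fold changes with standard errors and adjusted p-values up to 0.0999. Its README writes fold changes as control over treatment for the transcript table. Aligner, build and strand setting are not stated by any source used here, and the submitters' processing notes name DESeq.

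Of 24047 transcripts, 145 predicted ones were left out, each of 13822 loci was represented by its most-read transcript, and 6 loci with a symbol already taken were dropped. Transcript lengths are those deposited. Symbols came from RefSeq by gene ID for 12820 loci. Counts were tested in edgeR 4.0.16 (R 4.3.3): TMM scaling, a filterByExpr minimum count of 10, a quasi-likelihood test between the sets, and Benjamini-Hochberg adjustment over all 8137 genes, with a threshold of 0.05. DESeq2 1.42.0, other scalings, no filter, other transcript choices and leaving out each library were alternatives. Counts differed beyond sampling noise even within a set (chi-square over its degrees of freedom 2.43 to 7.46; between sets 103.0 to 195.0). Each replicate is a pool of midguts, so p-values measure the spread between pools. The procedure was tested on simulated data in which a small part of the genes was changed, evenly up and down. That setting differs from these data and cannot test the choice of scaling. The 9 genes, the lists and the tests were chosen with earlier results of these data known. Named were the 9 genes, 7 pathway genes whatever their value, up to 3 changed genes of each pathway list with the smallest adjusted p, and the 3 genes most like Hsc70-3 and Xbp1. On the PERK and ER-associated degradation lists the remaining called genes were named too. Some marker genes that weigh on a sum were also named. Of 88 listed pathway genes, 84 were tested. No sequence is printed.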

Additional observations from a re-analysis of the deposited data

How the results depend on the processing

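Across the 14 alternatives, Pdi and Hsc70-3 stayed lower and called, with log2 fold changes of -0.40 to -0.17 and -0.33 to -0.11, and Gp93 (-0.32 to -0.09) lost its call with total reads alone (adjusted p = 0.0613). The number of the 9 genes called lower was 6 in the reported fit, 7 with DESeq2 size factors, no filter or the replicate block, 5 with DESeq2, 4 with upper-quartile scaling or summed transcripts, 8 with the least-read transcript, 4 to 6 without 1 library, and 2 with total reads, where 2 were higher in place of 0. With total reads the estimate changed sign for Xbp1 (0.09), PEK (0.04), crc (0.09), Atf6 (0.12), Calr (0.19), Srp54k (0.02), Trp1 (0.03), SdhC (0.05), p38b (0.12) and Cyt-c1 (0.14). The median gene moved by 0.21 between the scalings. With the least-read transcript Cnx99A was at -0.12. SdhC also lost its call with upper-quartile scaling (adjusted p = 0.0659) and without treatment replicate 1 (0.0764) or 3 (0.09). Over all genes 4000 changed (2038 higher, 1962 lower), against 5202 (4126 higher, 1076 lower) with total reads, 3324 with DESeq2 and 3566 to 3810 without 1 library. The labels give no pairing of the libraries. Deviations of same-numbered libraries correlated at 0.00924, 0.0939 and 0.0211, and those of other pairs at -0.0899 to 0.0835. With so few libraries these values cannot exclude a pairing. A replicate block gave 4113 changed genes and called Xbp1 lower (-0.11, adjusted p = 0.0193). Among the 9 genes Ire1 had the fewest reads, at 302 to 632 reads per library.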
